A study of Mus musculus with 10 samples.

Results

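The 45 genes described here encode the enzymes and transporters that carry glucose carbon through glycolysis, the pentose phosphate pathway and the tricarboxylic acid (TCA) cycle. They were chosen by symbol among the 55573 Ensembl genes of the count table: 23 of glycolysis with glucose and lactate transport, 6 of the pentose phosphate pathway, and 16 of pyruvate dehydrogenase with its kinases and the TCA cycle. Of these, 43 passed the filter on low counts and were tested. They were compared between 5 GFP high libraries, labelled quiescent, and 5 GFP low libraries, labelled proliferating. All 10 libraries came from B-cell progenitors of the bone marrow, taken from mice with the genotype PAX5-ELN H2B-GFP, given doxycycline, at 35 days. PAX5-ELN is a fusion gene known from B-cell acute lymphoblastic leukemia, and H2B-GFP is a fluorescent histone that is diluted as cells divide. Both groups carry the fusion and the doxycycline treatment, so no comparison with cells free of either was made. The labels name neither the promoter that drives the fusion nor how animals or pools relate to libraries.

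Glycolysis splits glucose into pyruvate, which is either reduced to lactate and exported or passed into mitochondria. The pentose phosphate pathway branches off near the top of glycolysis and yields ribose for nucleotides and NADPH. Pyruvate dehydrogenase admits pyruvate carbon to the TCA cycle and is switched off by phosphorylation by its kinases (PDKs). Early B-lineage cells are known to import more glucose when they divide, and the B-lineage factors PAX5 and IKZF1 are known to restrain glucose import in human pre-B leukemia cells.

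Total counts were 11347097 to 13838769 in GFP high cells against 10640894 to 14858520 in GFP low cells. The labels do not name the animal behind each library. The p-values therefore refer to the spread among these 10 samples, part of which may be technical. Both libraries numbered 3 stood apart, with 9 counts of chromosome Y genes in GFP high library 3 and 2 in GFP low library 3, while the other 8 libraries had 309 to 2654. Libraries 1 to 3 and libraries 4 and 5 formed separate sets in both groups. Within a group, chi-square per gene between libraries was 9.03 to 22.6 among libraries 1 to 3 and 7.16 to 8.49 between 4 and 5, against 30.6 to 50.03 across the sets. All 16 B-cell progenitor markers were detected and tested, at summed levels of 23154 to 26480 CPM (counts scaled to library size) in GFP high cells against 18942 to 21074 CPM in GFP low cells. In bulk samples, fewer cells of a type and less RNA per cell cannot be told apart.

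Of the 43 tested members, 18 fell and 3 rose in GFP high cells by the quasi-likelihood test of edgeR, at a Benjamini-Hochberg adjusted p under 0.05 over the 12772 genes tested; 22 did not pass. Of all genes tested, 15.4% were lower and 12.0% higher by the same rule. The median log2 fold change, GFP high over GFP low, was -0.26 for the members and 0.03 for all genes tested. Of the members 35 (81.4%) had a negative log2 fold change, against 47.1% of all genes tested. The falls spanned log2 fold changes of -1.08 to -0.26, and Slc16a1, the lactate and pyruvate carrier, was the only member to fall at least 2-fold. The risers were the aldolase gene Aldoc and the pyruvate dehydrogenase kinase genes Pdk1 and Pdk2.

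The 45 genes together took 0.677% ± 0.0557 of all counts in GFP high cells against 0.852% ± 0.0212 in GFP low cells (SD, n = 5 each). Glycolysis with transport made up 0.286% ± 0.0245 of counts in GFP high cells against 0.399% ± 0.00861 in GFP low cells. The pentose phosphate genes took 0.0931% ± 0.00997 in GFP high cells against 0.115% ± 0.00383 in GFP low cells. Pyruvate dehydrogenase and the TCA cycle took 0.298% ± 0.0229 in GFP high cells against 0.339% ± 0.0167 in GFP low cells. For the 45 genes together, glycolysis with transport and the pentose phosphate genes, every GFP high library lay below every GFP low library. For pyruvate dehydrogenase and the TCA cycle the groups overlapped, with GFP high library 5 at 0.328% and GFP low library 2 at 0.322%. Gene by gene, every GFP high library lay below every GFP low library for 14 members, against 12.6% of all genes tested. Pdk2 was the member for which every GFP high library lay above every GFP low library, against 7.92% of all genes tested.

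**Figure D1:**
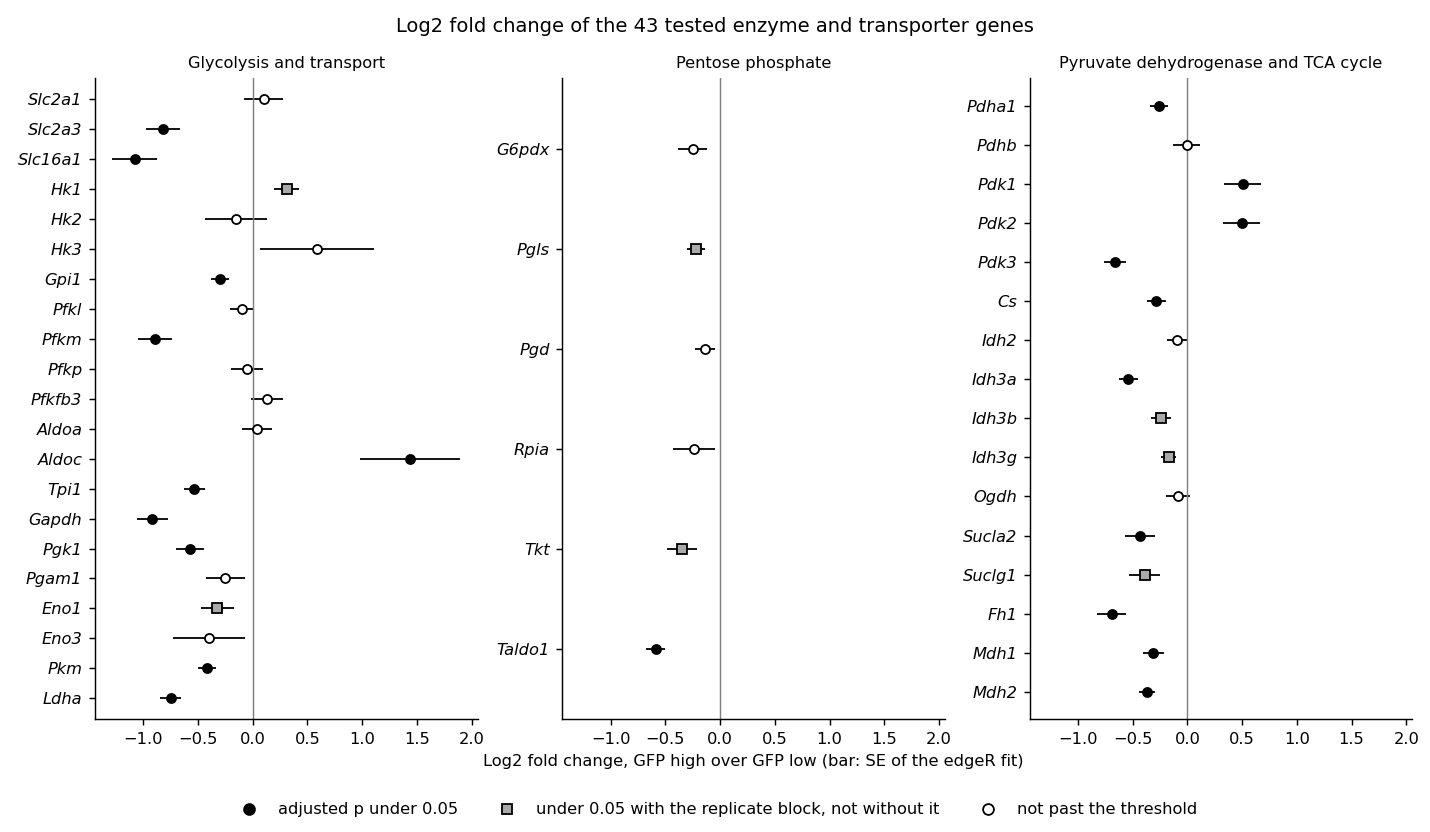
Log2 fold change (GFP high over GFP low, edgeR) of the 43 tested members, by pathway, with bars of 1 standard error. Filled circles passed an adjusted p of 0.05, grey squares passed with the replicate number as a block but not without it, and open circles passed in neither; 35 of the 43 points lie left of 0.

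Replicate numbers were shared between groups, so a second fit took the number as a block. Deviations from the group means correlated at 0.248 to 0.353 between libraries of the same number and at -0.304 to 0.321 between libraries of different numbers. With the block 24 members were lower and 4 higher, and all 21 calls of the unblocked fit were among them. Over all genes tested, 21.0% were lower and 20.7% higher with the block. The 7 members that passed with the block but not in the unblocked edgeR fit of all 10 libraries were Hk1 (higher) and Eno1, Tkt, Pgls, Suclg1, Idh3b and Idh3g (lower). Some of them also passed in other unblocked fits of these libraries. With DESeq2 these were Hk1 (adjusted p = 0.0423), Tkt (0.0494), Suclg1 (0.0384) and Idh3g (0.0274), with total-count scaling Hk1 (0.0431), and with limma-voom Suclg1 (0.0373). GFP high lay below GFP low in 5 of 5 numbered pairs for 24 members and above for 4, beside 23.1% and 22.9% of all genes tested. Leaving out single libraries in turn, 14 of the 18 lower members passed in all 10 fits. Aldoc, Pdk1, Pdk2, Pdha1, Cs, Sucla2 and Mdh1 did not, and the libraries concerned are given with each. In libraries 1 to 3 alone 15 of the 18 falls passed, without Pdha1, Cs and Sucla2, and in libraries 4 and 5 alone 17 did, without Gpi1. Pdk1 passed in both sets (adjusted p = 0.00385 in libraries 1 to 3 and 0.0139 in 4 and 5). Aldoc passed in libraries 1 to 3 (0.0345) but not in 4 and 5 (0.0544), and Pdk2 in neither (0.101 and 0.0748). Without both libraries numbered 3, 13 of the 18 falls still passed. Of the 3511 genes called in either direction in all 10 libraries, 2600 passed in libraries 1 to 3 alone. In libraries 4 and 5 alone 2225 of them passed, and 2256 did without both libraries numbered 3. Members that passed in all 10 libraries but not in these 8 were Gpi1, Pdha1, Cs, Sucla2 and Mdh1 among the falls, and the risers Aldoc (adjusted p = 0.104), Pdk1 (adjusted p = 0.0837) and Pdk2 (adjusted p = 0.0841). Exons of Pdha1, Pkm, G6pdx, Gpi1 and Pfkm share 10.2% to 16.2% of their bases with an overlapping gene, so part of their counts may belong to that gene. Over all 10 libraries, Ikbkg, which overlaps G6pdx, held 9934 counts against 6577 for G6pdx. The genes that overlap the others by these shares held 39 to 322 counts, against 1622 to 59447 for the members.

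The stretch upstream of each gene's start was read from RefSeq (build GRCm38.p6), where 43 of the 45 members matched; Slc2a3 and Idh3a did not. In the 250 bases before to 50 bases after the start, CACGTG, the palindromic E-box core bound by MYC and by the carbohydrate-responsive MondoA and ChREBP with MLX, was found in 6 members (13.95%). It was found in 12.04% of the 9115 tested genes with a window. The 6 were Slc16a1, Pfkm, Pfkfb3, Ldha, Pdk2 and Ogdh, of which Slc16a1, Pfkm and Ldha fell and Pdk2 rose in GFP high. For those 4 the 250 bases before the start are shown, 5′ to 3′ on the gene's strand, because they hold the same hexamer beside opposite changes. CACGTG is in capitals.
Slc16a1, chr3:104638414-104638663, plus strand: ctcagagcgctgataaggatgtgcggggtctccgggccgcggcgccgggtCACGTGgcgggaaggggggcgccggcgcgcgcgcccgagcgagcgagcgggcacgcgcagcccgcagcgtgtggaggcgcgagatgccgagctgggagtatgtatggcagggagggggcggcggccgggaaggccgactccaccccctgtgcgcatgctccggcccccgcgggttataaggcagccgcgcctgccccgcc
Pfkm, chr15:98092339-98092588, plus strand: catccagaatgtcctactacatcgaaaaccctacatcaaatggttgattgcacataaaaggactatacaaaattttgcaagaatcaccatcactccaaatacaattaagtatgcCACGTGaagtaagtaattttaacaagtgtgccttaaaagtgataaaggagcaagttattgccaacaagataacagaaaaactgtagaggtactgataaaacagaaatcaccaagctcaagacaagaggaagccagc
Ldha, chr7:46845554-46845803, plus strand: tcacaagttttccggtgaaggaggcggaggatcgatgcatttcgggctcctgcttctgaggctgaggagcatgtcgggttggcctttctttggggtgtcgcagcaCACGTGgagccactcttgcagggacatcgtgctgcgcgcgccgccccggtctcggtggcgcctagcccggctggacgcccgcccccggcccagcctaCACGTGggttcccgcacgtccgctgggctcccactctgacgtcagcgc
Pdk2, chr11:95041372-95041621, minus strand: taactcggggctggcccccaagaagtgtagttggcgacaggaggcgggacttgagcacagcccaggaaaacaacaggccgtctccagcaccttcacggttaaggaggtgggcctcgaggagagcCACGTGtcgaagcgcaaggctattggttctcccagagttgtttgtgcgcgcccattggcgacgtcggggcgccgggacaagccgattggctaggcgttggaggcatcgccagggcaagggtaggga
RefSeq gives several starts for Pfkm, Ldha and Pdk2, and the start whose window held the hexamer is shown. The hexamer began 200 bases before the start in Slc16a1, 136 in Pfkm, 145 and again 48 in Ldha, and 126 in Pdk2. ACGTG on either strand, the core of the hypoxia response element and part of CACGTG itself, was found in 22 of the 43 members (51.16%), against 29.58% of tested genes. Of members with a window, 8 of the 16 that fell, 2 of the 3 that rose and 11 of the 22 that did not pass held it. GTAAACA, a forkhead motif that FOXO factors bind, was found in the Aldoc window alone (2.33% of members, 3.12% of tested genes). The palindromic NRF1 consensus was found in the Pgam1 window alone (2.33% of members, 2.51% of tested genes). Both strands were searched for each motif, and a gene counted once if any of its RefSeq windows held it. These matches describe letters in the window and were not tested for binding.

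The lactate carrier Slc16a1 and the glucose importer Slc2a3 fell in GFP high cells, while the glucose importer Slc2a1 did not pass. Slc16a1, which moves lactate and pyruvate across the plasma membrane (ENSMUSG00000032902, chromosome 3, 104638668 to 104658462), had 350.2, 333, 274, 197 and 195 CPM in GFP high cells (libraries 1 to 5) against 626, 734, 640.3, 438 and 412 CPM in GFP low cells (libraries 1 to 5). The groups did not overlap, and libraries 4 and 5 were the lowest of each group. Its log2 fold change was -1.08 ± 0.20 (SE; edgeR, adjusted p = 0.00196), the largest fall among the 43 tested members. The high-affinity glucose importer Slc2a3 (ENSMUSG00000003153, chromosome 6, 122727809 to 122801640) had 16.3, 11.2, 9.82, 10.4 and 12.6 CPM in GFP high cells against 21.5, 20.8, 22.6, 19.1 and 22.5 CPM in GFP low cells, again without overlap (log2 fold change -0.82 ± 0.16, adjusted p = 0.00199). Slc2a1, the widely expressed glucose importer GLUT1, had 26.3, 27.2, 25.3, 20.01 and 24.2 CPM in GFP high cells against 21.3, 28.1, 31.1, 15.9 and 18.5 CPM in GFP low cells. Its GFP high values lay inside the GFP low range (log2 fold change 0.10 ± 0.18, adjusted p = 0.722). Per kilobase of exon, Slc2a1 made up 80.9% ± 2.92 of the pair's level in GFP high cells against 68.2% ± 5.38 in GFP low cells, with no overlap between groups. Since Slc2a1 did not pass, this share restates the fall of Slc2a3 and adds no separate result. Its size depends on the exon bases used for the division (3506 for Slc2a1 and 7245 for Slc2a3). In CPM, Slc2a3 lay above Slc2a1 in GFP low libraries 1, 4 and 5, and Slc2a1 above Slc2a3 in every other library. Slc16a3, the lactate exporter of strongly glycolytic cells, was near the limit of detection, with 2 to 7 counts per library in GFP high cells against 5 to 23 in GFP low cells. It did not pass the filter on low counts.

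From hexokinase to triose phosphate isomerase, 3 of 11 tested genes fell (27.3%) and 1 rose (9.09%), beside 15.4% and 12.0% of all genes tested. Their median log2 fold change was -0.05. The falls were Gpi1, Pfkm and Tpi1. Pfkm, the muscle-type subunit of phosphofructokinase, the committed step of glycolysis (ENSMUSG00000033065, chromosome 15, 98092589 to 98132451), had 10.4, 8.98, 7.09, 7.396 and 9.61 CPM in GFP high cells against 16.4, 15.3, 14.6, 18.003 and 16.5 CPM in GFP low cells. Its groups did not overlap (log2 fold change -0.89 ± 0.16, adjusted p = 0.001198). The other phosphofructokinase genes did not pass: Pfkl, the liver-type subunit, averaged 80.8 ± 9.19 CPM in GFP high cells against 86.3 ± 10.5 CPM in GFP low cells (adjusted p = 0.544). Pfkp, the platelet-type subunit, had a log2 fold change of -0.05 and averaged 65.8 ± 11.9 CPM in GFP high cells against 68.3 ± 11.3 CPM in GFP low cells (adjusted p = 0.828), and its sign turned without GFP high library 2 or GFP low library 5 (log2 fold change 0.07 and 0.02). Per kilobase, Pfkm made up 13.3% ± 1.65 of the 3 phosphofructokinase genes in GFP high cells against 21.3% ± 1.73 in GFP low cells, without overlap, while Pfkl was the highest of the 3 in both groups. Since Pfkl and Pfkp did not pass, the Pfkm share restates the fall of Pfkm and adds no separate result.

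Gpi1, glucose phosphate isomerase, spanned 117 to 156 CPM in GFP high cells against 165 to 179 CPM in GFP low cells (log2 fold change -0.30 ± 0.08, adjusted p = 0.0188). Tpi1, which interconverts the triose phosphates (ENSMUSG00000023456, chromosome 6, 124810586 to 124814296), had 122, 111, 109, 140.1 and 146 CPM in GFP high cells against 178, 176, 181, 180.3 and 192 CPM in GFP low cells (log2 fold change -0.53 ± 0.09, adjusted p = 0.00129). The Gpi1 groups did not overlap, and the Tpi1 groups did not either, with a narrow GFP low range for both. The Gpi1 call was lost without both libraries numbered 3 (adjusted p = 0.0524), without the filter on low counts (adjusted p = 0.0599) and in libraries 4 and 5 alone (adjusted p = 0.0729).

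Among the aldolases, which split fructose bisphosphate, Aldoc rose from a low level while the far more abundant Aldoa did not pass. Aldoc (ENSMUSG00000017390, chromosome 11, 78322968 to 78327781) had 3.35, 3.66, 5.33, 6.38 and 9.004 CPM in GFP high cells against 1.004, 0.707, 2.13, 4.09 and 2.302 CPM in GFP low cells. GFP high lay above GFP low in each of the 5 numbered pairs, but GFP low library 4 lay above GFP high libraries 1 and 2, so the groups overlapped. The log2 fold change was 1.44 ± 0.46 (adjusted p = 0.0343). The call was lost without GFP high library 3, 4 or 5, or GFP low library 1, 2, 3 or 5 (log2 fold change 1.20 to 1.48, adjusted p 0.0558 to 0.0838). Aldoa (ENSMUSG00000030695, chromosome 7, 126795234 to 126800751) had 178, 133, 124, 177 and 185 CPM in GFP high cells against 181, 123, 143, 165 and 163 CPM in GFP low cells (log2 fold change 0.04 ± 0.14, adjusted p = 0.868), and its sign turned without GFP high library 5 or GFP low library 2 (-0.01 and -0.04). Aldoc stood at 1.6998 CPM per kilobase of exon in GFP high cells against 0.627 in GFP low cells. Aldoa stood at 54.7 CPM per kilobase in GFP high cells against 53.3 in GFP low cells.

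The hexokinases, which trap glucose by phosphorylating it, did not pass in the unblocked edgeR fit. Hk1, which made up 91.2% of the family per kilobase in GFP high cells against 89.2% in GFP low cells, had 119.98, 142, 179, 141 and 145 CPM in GFP high cells against 97.97, 107, 123, 122 and 136 CPM in GFP low cells. GFP high was above GFP low in 5 of 5 pairs although the groups overlapped, and Hk1 passed with the replicate block (log2 fold change 0.31, adjusted p = 0.00481) but not in the unblocked edgeR fit (0.31 ± 0.12, adjusted p = 0.0672). Leaving out GFP high library 1 brought it past the threshold too (log2 fold change 0.40, adjusted p = 0.0351). Hk2, the inducible hexokinase, had 9.62, 3.31, 8.14, 9.19 and 8.66 CPM in GFP high cells against 7.75, 5.796, 10.1, 11.5 and 8.26 CPM in GFP low cells (log2 fold change -0.15 ± 0.28, adjusted p = 0.732). GFP high library 2 was the lowest of all, and without it the sign turned (log2 fold change 0.06). Hk3, the hexokinase of myeloid cells, had 1.02, 1.39, 1.403, 0.545 and 1.47 CPM in GFP high cells against 0.4303, 1.48, 0.968, 0.157 and 0.812 CPM in GFP low cells, a low level with overlapping groups (log2 fold change 0.59 ± 0.52, adjusted p = 0.432). Pfkfb3, which makes the fructose bisphosphate isomer that activates phosphofructokinase, averaged 78.4 ± 17.8 CPM in GFP high cells against 71.6 ± 7.59 CPM in GFP low cells (adjusted p = 0.545).

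**Figure D2:**
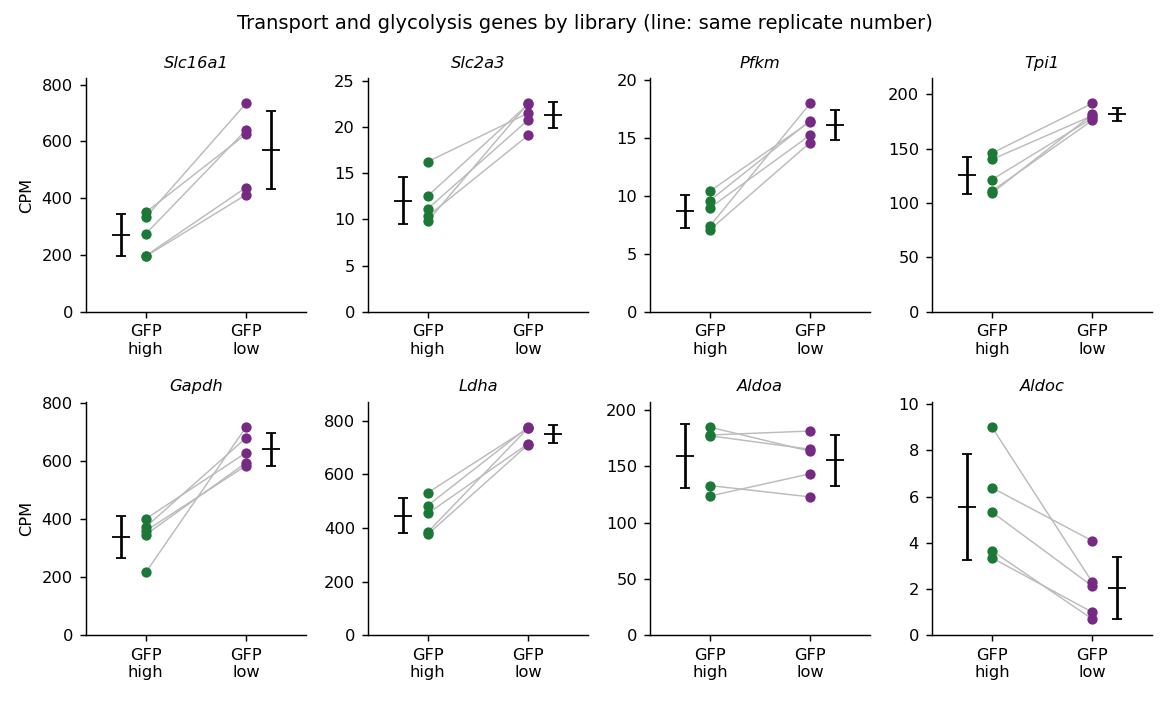
CPM per library (vertical axes, starting at 0) of 8 members of glycolysis and transport, GFP high on the left and GFP low on the right of each panel, with grey lines joining libraries of the same number and bars for the mean and SD of 5 libraries. Ldha, Gapdh, Slc16a1, Pfkm, Slc2a3 and Tpi1 show no overlap between groups, while Aldoa overlaps throughout and Aldoc overlaps in part.

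From Gapdh to pyruvate kinase, where glycolysis yields ATP, all 6 tested genes had negative log2 fold changes and 3 passed, with a median of -0.41. Gapdh, glyceraldehyde phosphate dehydrogenase (ENSMUSG00000057666, chromosome 6, 125161715 to 125166467), had 400.3, 372, 216, 359 and 346 CPM in GFP high cells against 628, 679, 716, 583 and 593 CPM in GFP low cells. No GFP high library reached the GFP low range, and GFP high library 3 was the lowest (log2 fold change -0.92 ± 0.14, adjusted p = 5.25e-04). The mouse genome holds 93 near-identical copies of Gapdh, and they held counts equal to 2.93% of the gene's own, so its level is uncertain by reads that may have been shared. Pgk1, phosphoglycerate kinase (ENSMUSG00000062070, chromosome X, 106187100 to 106203699), had 66.1, 67.9, 56.6, 72.95 and 70.99 CPM in GFP high cells against 70.7, 96.2, 117, 100.4 and 114 CPM in GFP low cells (log2 fold change -0.57 ± 0.13, adjusted p = 0.00594). GFP low library 1 fell within the GFP high range and the other GFP low libraries lay above it. Pkm, pyruvate kinase (ENSMUSG00000032294, chromosome 9, 59656368 to 59679375), spanned 329.8 to 424 CPM in GFP high cells against 462 to 546 CPM in GFP low cells without overlap (log2 fold change -0.42 ± 0.09, adjusted p = 0.00361).

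Ldha, which reduces pyruvate to lactate (ENSMUSG00000063229, chromosome 7, 46841475 to 46855627), had 454, 376, 385, 484 and 531 CPM in GFP high cells against 713, 710.4, 772, 775 and 772 CPM in GFP low cells. The gap between the groups was wider than the spread in either, with a log2 fold change of -0.75 ± 0.10 (adjusted p = 1.70e-04), the smallest adjusted p of the members. Ldha and Slc16a1, which act in sequence to make and move lactate, both fell. Ldhb, the subunit favouring the reverse reaction, had 0 to 4 counts per library in GFP high cells against 0 to 2 in GFP low cells and did not pass the filter on low counts. Its near-identical copies held counts equal to 57.1% of its own.

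The remaining genes of this stretch did not pass in the unblocked edgeR fit. Eno1, the main enolase, had 379, 331, 321, 493 and 530.1 CPM in GFP high cells against 472, 437, 490.04, 590.4 and 577 CPM in GFP low cells. The groups overlapped, GFP high lay below GFP low in 5 of 5 pairs, and the log2 fold change was -0.34 with the block (adjusted p = 0.00133) and -0.32 ± 0.15 without it (adjusted p = 0.126). Eno1 also passed when GFP high library 5 was left out (log2 fold change -0.42, adjusted p = 0.0427) and in libraries 1 to 3 alone (adjusted p = 0.0105). Pgam1, phosphoglycerate mutase, whose near-identical copies held counts equal to 1.17% of its own, averaged 32.5 ± 9.02 CPM in GFP high cells against 38.7 ± 5.96 CPM in GFP low cells (adjusted p = 0.323). Eno3, the muscle enolase, averaged 3.52 ± 1.19 CPM in GFP high cells against 4.67 ± 1.68 CPM in GFP low cells (adjusted p = 0.398).

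All 6 pentose phosphate genes had negative log2 fold changes, beside 47.1% of all genes tested. Only Taldo1 passed in the unblocked edgeR fit (16.7%, beside 15.4% of all genes tested). Taldo1, the transaldolase that links the pathway back to glycolysis (ENSMUSG00000025503, chromosome 7, 141392199 to 141402968), had 200.4, 204, 175, 209.6 and 226 CPM in GFP high cells against 276, 332, 338, 295 and 286 CPM in GFP low cells. The groups were well apart (log2 fold change -0.59 ± 0.09, adjusted p = 5.03e-04). Tkt, the transketolase that works beside it, had 413, 274, 259, 324 and 358 CPM in GFP high cells against 522, 366, 394, 393 and 398 CPM in GFP low cells. Library 1 was the highest of each group, GFP high lay below GFP low in each pair, and the adjusted p was 0.0751 without the block and 8.73e-04 with it (log2 fold change -0.36). Tkt also passed without GFP high library 1 (log2 fold change -0.43, adjusted p = 0.0221).

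Pgls, the lactonase of the oxidative branch, had 226, 227, 215, 225 and 274 CPM in GFP high cells against 246, 285, 277, 281 and 266 CPM in GFP low cells. GFP high library 5 stood above the other 4 and above GFP low libraries 1 and 5, and the adjusted p was 0.0717 without the block and 0.0222 with it. Pgls also passed without GFP high library 5 or without GFP low library 1 (log2 fold change -0.27 to -0.25, adjusted p 0.0237 to 0.0376). It shares 20.6% of its exon bases with Fam129c on the same strand, so its counts may include reads of that gene. G6pdx, which commits glucose to the pathway, averaged 46.5 ± 9.02 CPM in GFP high cells against 55.4 ± 6.06 CPM in GFP low cells (log2 fold change -0.25 ± 0.13, adjusted p = 0.183). It passed without GFP high library 5 (log2 fold change -0.35, adjusted p = 0.0476) and in libraries 1 to 3 alone (adjusted p = 0.0462). Pgd, the other NADPH-forming dehydrogenase, averaged 97.3 ± 11.2 CPM in GFP high cells against 107 ± 4.25 CPM in GFP low cells (adjusted p = 0.2698). Rpia, the ribose phosphate isomerase, averaged 11.8 ± 1.79 CPM in GFP high cells against 13.9 ± 3.43 CPM in GFP low cells (adjusted p = 0.385).

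**Figure D3:**
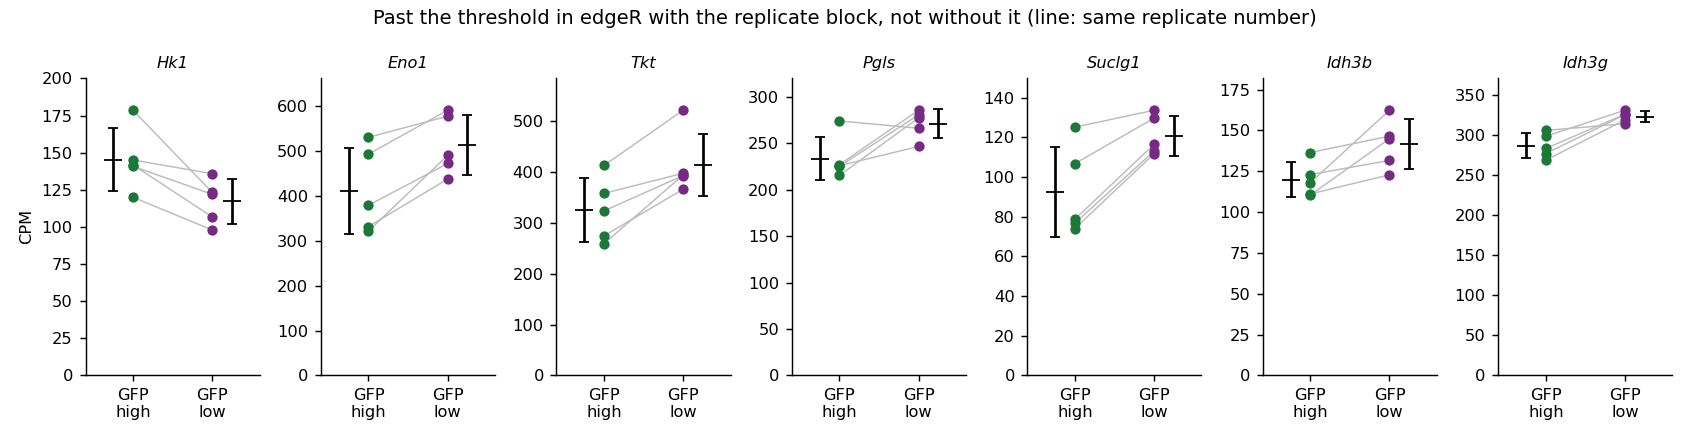
CPM per library of the 7 members that passed in edgeR with the replicate number as a block but not without it, GFP high on the left and GFP low on the right of each panel, with a line joining libraries of the same number and bars for the mean and SD of 5 libraries. Hk1 slopes down to GFP low in 5 of 5 pairs, and Eno1, Tkt, Suclg1, Idh3b and Idh3g slope up in 5 of 5; for Pgls, pair 5 goes the other way.

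The kinases that inactivate pyruvate dehydrogenase moved in opposite directions. Pdk1 (ENSMUSG00000006494, chromosome 2, 71873224 to 71903858) had 164, 205, 157, 228 and 221 CPM in GFP high cells against 121, 106, 109.6, 169 and 180.3 CPM in GFP low cells. Pdk2 (ENSMUSG00000038967, chromosome 11, 95026258 to 95041354) had 29.2, 30.8, 27.6, 29.8 and 45.6 CPM in GFP high cells against 26.8, 21.2, 17.2, 22.7 and 27.5 CPM in GFP low cells. GFP high was above GFP low in 5 of 5 pairs for both, with overlap between groups for Pdk1 and none for Pdk2, where GFP high library 5 stood above the rest. Pdk1 rose by a log2 fold change of 0.51 ± 0.17 (adjusted p = 0.0409) and Pdk2 by 0.50 ± 0.17 (adjusted p = 0.0453). Pdk1 no longer passed without GFP high library 2, 4 or 5, or GFP low library 1, 2 or 3 (log2 fold change 0.43 to 0.50, adjusted p 0.0729 to 0.101). Pdk2 no longer passed without GFP high library 2, 4 or 5, or GFP low library 2, 3 or 4 (log2 fold change 0.36 to 0.53, adjusted p 0.0507 to 0.0895).

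Pdk3 (ENSMUSG00000035232, chromosome X, 93764607 to 93832201), by contrast, fell, with 52.9, 44.4, 44.6, 51.1 and 55.1 CPM in GFP high cells against 67.7, 73.7, 90.6, 86.2 and 74.8 CPM in GFP low cells. Its groups did not overlap (log2 fold change -0.66 ± 0.10, adjusted p = 6.24e-04), and it passed whichever single library was left out. Per kilobase of exon, Pdk3 made up 35.6% ± 3.36 of the 3 kinases in GFP high cells against 55.4% ± 6.32 in GFP low cells, and Pdk1 made up 45.7% ± 3.75 in GFP high cells against 31.4% ± 4.9999 in GFP low cells. Per kilobase, the kinase with the highest mean was thus Pdk1 in GFP high and Pdk3 in GFP low. That ranking depends on the exon bases used for the division (7779 for Pdk1 and 2561 for Pdk3). In CPM, Pdk1 lay above Pdk3 in every library of both groups. The log2 ratio of Pdk1 to Pdk3 CPM was 1.96 ± 0.24 in GFP high (1.64 to 2.21) and 0.78 ± 0.39 in GFP low (0.28 to 1.27), without overlap. Being formed from genes called in opposite directions in these same libraries, the ratio restates those calls and adds no separate result. The kinases' target fell less: Pdha1, the catalytic subunit that they phosphorylate, averaged 136 ± 9.98 CPM in GFP high cells against 163 ± 13.6 CPM in GFP low cells (log2 fold change -0.26 ± 0.08, adjusted p = 0.03704). That call was lost without GFP high library 1, 2, 3 or 4, or GFP low library 2, 4 or 5 (log2 fold change -0.26 to -0.21, adjusted p 0.0595 to 0.119). Pdhb, the beta subunit of the same enzyme, averaged 254 ± 27.8 CPM in GFP high cells against 255 ± 49.8 CPM in GFP low cells (log2 fold change -0.01 ± 0.12, adjusted p = 0.976), with GFP low library 1 high at 342 CPM. Its sign turned with RLE scaling (0.01), total-count scaling (0.04) or the block (0.01), and without that library (0.12).

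**Figure D4:**
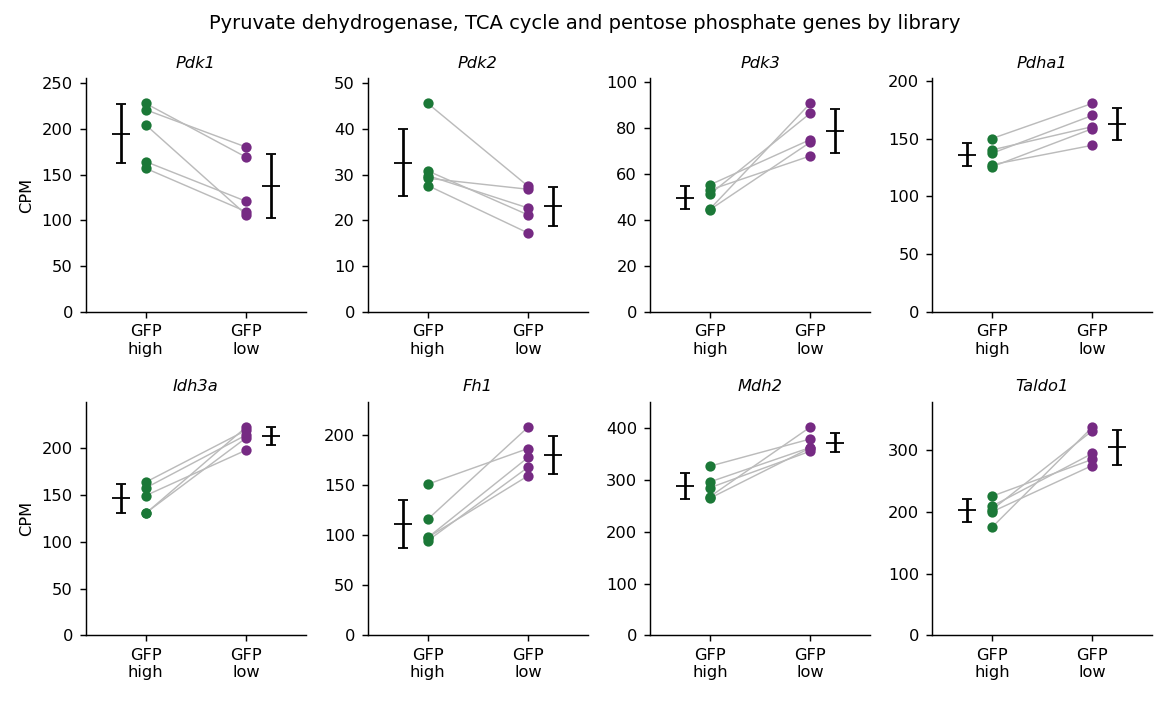
CPM per library (vertical axes, starting at 0) of the pyruvate dehydrogenase kinases, Pdha1, 3 TCA cycle genes and Taldo1, GFP high on the left and GFP low on the right of each panel, with grey lines joining libraries of the same number and bars for the mean and SD of 5 libraries. Pdk1 and Pdk2 lie higher in GFP high on average, while Pdk3, Idh3a, Fh1, Mdh2 and Taldo1 lie lower in every GFP high library than in any GFP low library.

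Within the TCA cycle the falls were spread over several steps. Idh3a, the catalytic subunit of the NAD-linked isocitrate dehydrogenase (ENSMUSG00000032279, chromosome 9, 54586334 to 54604661), had 149, 131, 130.1, 157 and 163 CPM in GFP high cells against 198, 211, 222, 214 and 219 CPM in GFP low cells (log2 fold change -0.54 ± 0.08, adjusted p = 6.18e-04). Fh1, fumarase (ENSMUSG00000026526, chromosome 1, 175600374 to 175625635), had 97.6, 94.4, 97.4, 116 and 151 CPM in GFP high cells against 159, 168, 177, 207 and 186 CPM in GFP low cells (log2 fold change -0.69 ± 0.13, adjusted p = 0.00217). For both, every GFP high library lay below every GFP low library, and for Fh1 GFP high library 5 came closest to GFP low. Mdh2, the mitochondrial malate dehydrogenase (ENSMUSG00000019179, chromosome 5, 135778480 to 135790398), spanned 265 to 327 CPM in GFP high cells against 356 to 402 CPM in GFP low cells, also without overlap (log2 fold change -0.37 ± 0.08, adjusted p = 0.00376).

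Smaller falls were found for Cs, Sucla2 and Mdh1, and each was lost in some fits that left out 1 library. Cs, citrate synthase, the entry step of the cycle, averaged 250.5 ± 22.7 CPM in GFP high cells against 305 ± 29.02 CPM in GFP low cells (log2 fold change -0.28 ± 0.09, adjusted p = 0.0335). It was lost without GFP high library 1, 2 or 3, or GFP low library 2, 4 or 5 (log2 fold change -0.28 to -0.24, adjusted p 0.0588 to 0.0984). Sucla2, the subunit of the ATP-forming succinate-CoA ligase, averaged 118 ± 17.6 CPM in GFP high cells against 160.05 ± 32.2 CPM in GFP low cells (log2 fold change -0.44 ± 0.14, adjusted p = 0.0332). The call was lost without GFP high library 2, 3, 4 or 5, or GFP low library 1 or 3 (log2 fold change -0.42 to -0.31, adjusted p 0.0597 to 0.0714). Mdh1, the cytosolic malate dehydrogenase, averaged 354 ± 47.2 CPM in GFP high cells against 439.7 ± 26.9 CPM in GFP low cells (log2 fold change -0.31 ± 0.10, adjusted p = 0.02803), lost without GFP high library 2 or 3, or GFP low library 4 or 5 (-0.29 to -0.25, adjusted p 0.0554 to 0.0803).

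The 3 subunits of the NAD-linked isocitrate dehydrogenase all had negative log2 fold changes. Beside Idh3a, Idh3b had 136, 110.4, 118, 111 and 123 CPM in GFP high cells against 146, 145, 162, 123 and 132 CPM in GFP low cells (adjusted p = 0.0756 without the block, 0.0198 with it). Idh3g had 306, 284, 269, 277 and 299 CPM in GFP high cells against 315, 326, 319, 326 and 331 CPM in GFP low cells (adjusted p = 0.0685 without the block, 0.0255 with it). Both lay lower in GFP high in 5 of 5 pairs, and the Idh3g groups did not overlap, with a log2 fold change of -0.17 ± 0.07. Suclg1, the subunit shared by both succinate-CoA ligases, had 78.8, 76.8, 74.1, 107 and 125 CPM in GFP high cells against 116, 113, 112, 129.7 and 134 CPM in GFP low cells, below in 5 of 5 pairs (adjusted p = 0.0618 without the block, 0.0015003 with it). It passed without GFP high library 4 or 5 (log2 fold change -0.51 to -0.44, adjusted p 0.00834 to 0.0484) and in libraries 1 to 3 alone (adjusted p = 0.00227). Ogdh, oxoglutarate dehydrogenase, averaged 322 ± 37.8 CPM in GFP high cells against 341 ± 46.8 CPM in GFP low cells (adjusted p = 0.601). Idh2, the NADP-linked mitochondrial isocitrate dehydrogenase, averaged 186 ± 22.8 CPM in GFP high cells against 198 ± 14.2 CPM in GFP low cells (adjusted p = 0.498).

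**Figure D5:**
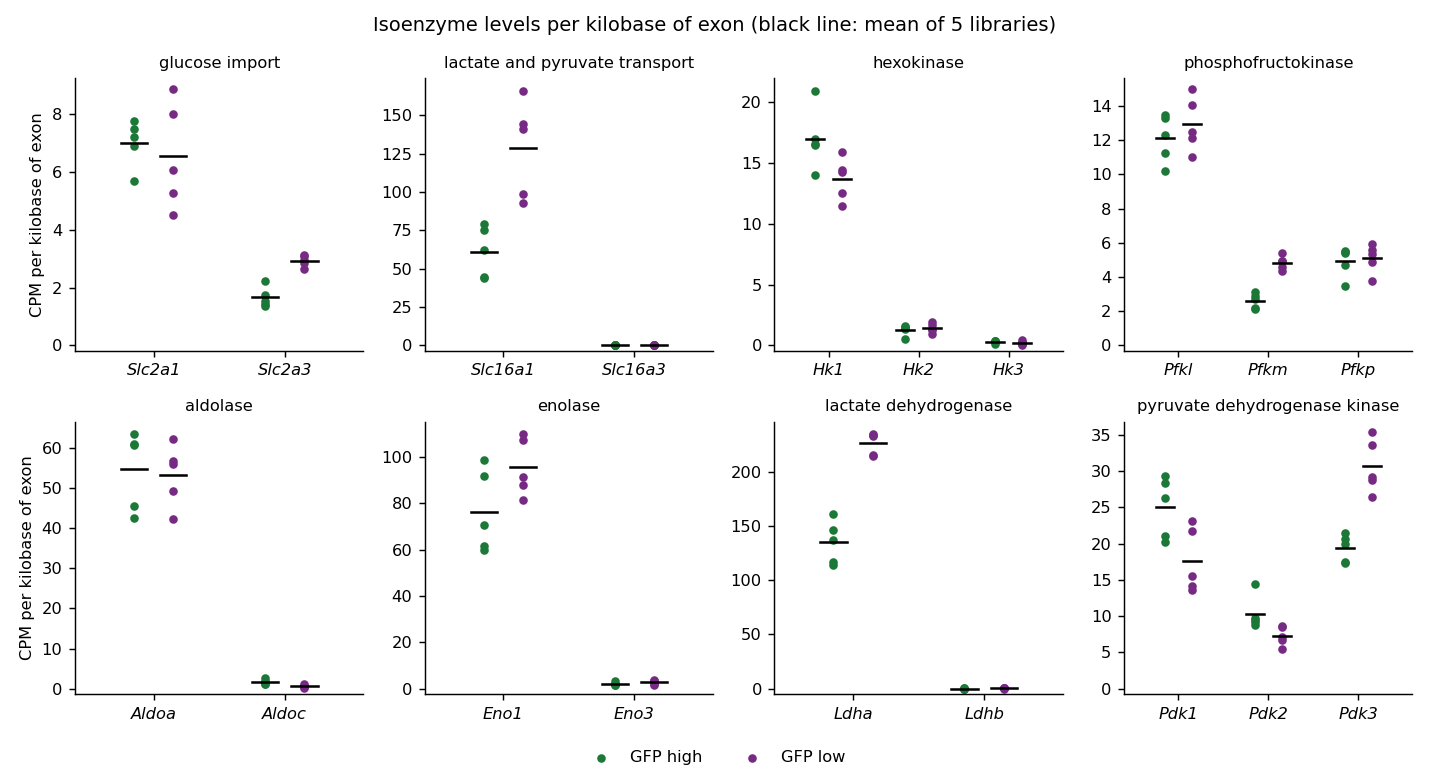
Level per kilobase of exon (CPM per kilobase) of the members of 8 isoenzyme families, with 1 point per library, a black line for the mean of 5 libraries and GFP high left of GFP low. Pdk1 has the highest mean of the kinases in GFP high and Pdk3 in GFP low, and Hk1, Pfkl, Aldoa, Eno1, Ldha, Slc16a1 and Slc2a1 lead their families in both groups. In CPM, without division by exon bases, Slc2a3 lay above Slc2a1 in GFP low libraries 1, 4 and 5.

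For most families the leading isoenzyme was the same in both groups, as the plot of levels per kilobase shows. Ldha stood at 135 CPM per kilobase in GFP high cells against 226 CPM per kilobase in GFP low cells, with Ldhb under 0.1 in both. Slc16a1 stood at 60.97 CPM per kilobase in GFP high cells against 129 in GFP low cells. Eno1 stood at 76.4 CPM per kilobase in GFP high cells against 95.4 in GFP low cells. Eno3 stood at 2.03 CPM per kilobase in GFP high cells against 2.68 in GFP low cells. Levels of Gapdh and Ldha relative to Aldoa, which did not pass, were lower in GFP high. Since Aldoa changed little (log2 fold change 0.04), these ratios restate the falls of Gapdh and Ldha. The log2 ratio of Ldha to Aldoa CPM was 1.49 ± 0.10 in GFP high cells against 2.28 ± 0.21 in GFP low cells, and that of Gapdh to Aldoa was 1.08 ± 0.27 in GFP high cells against 2.05 ± 0.32 in GFP low cells (SD, n = 5 each). Neither ratio overlapped between groups.

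Another 85 enzymes and transporters of the same 3 pathways were listed beside the members, of which 61 were tested. Of these 20 fell (32.8%), 1 rose (1.64%) and 40 did not pass, beside 15.4% lower and 12.0% higher among all genes tested. Their median log2 fold change was -0.12. Pcx, pyruvate carboxylase, which feeds the cycle with oxaloacetate, fell by more than the other genes of this list that passed (8.403 ± 1.91 CPM in GFP high cells against 17.1 ± 3.02 CPM in GFP low cells, log2 fold change -1.02 ± 0.19, adjusted p = 0.00215). Of 30 tested genes of pyruvate handling and the TCA cycle, 12 fell (40.0%, beside 15.4% of all genes tested). Among them were Dld, a subunit that pyruvate and oxoglutarate dehydrogenase share (-0.38 ± 0.07, adjusted p = 0.00195), and Sdhb, a subunit of succinate dehydrogenase (-0.54 ± 0.12, adjusted p = 0.00673). In the pentose phosphate surroundings 5 of 11 fell (45.5%, beside 15.4% of all genes tested). Among them were the ribose phosphate activating synthetases Prps1 (-0.67 ± 0.09, adjusted p = 2.47e-04) and Prps2 (-0.64 ± 0.10, adjusted p = 7.08e-04). The others were Dera, a deoxyribose phosphate aldolase (-0.58), Rpe, the ribulose phosphate epimerase (-0.32), and Rbks, the ribokinase (-0.45). The Rpe call was lost without GFP high library 1, 2 or 3, or GFP low library 2, 4 or 5 (-0.31 to -0.27, adjusted p 0.0541 to 0.0827). Rbks was lost without GFP high library 2, 3, 4 or 5, or GFP low library 3 or 5 (-0.45 to -0.37, adjusted p 0.0608 to 0.0917).

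Of 14 other tested glycolytic genes 2 fell (14.3%, beside 15.4% of all genes tested). These were Bpgm, which makes bisphosphoglycerate (-0.53 ± 0.12, adjusted p = 0.00609), and Gpd2, which passes electrons from cytosolic NADH to the respiratory chain (-0.48 ± 0.13, adjusted p = 0.0142). Of 6 other tested transport genes 1 fell and 1 rose (16.7% each, beside 15.4% and 12.0% of all genes tested). Bsg, the chaperone that carries the Slc16a1 protein to the cell surface, fell (147 ± 24.9 CPM in GFP high cells against 199.7 ± 14.9 CPM in GFP low cells, log2 fold change -0.44 ± 0.11, adjusted p = 0.01195). Slc2a6, a sugar transporter of low abundance here, rose (9.27 ± 5.39 CPM in GFP high cells against 3.06 ± 2.09 CPM in GFP low cells, log2 fold change 1.59 ± 0.55, adjusted p = 0.0493). The Slc2a6 call was lost without GFP high library 2, 4 or 5, or GFP low library 1, 2, 3 or 5 (1.30 to 1.72, adjusted p 0.0567 to 0.119).

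Of 33 tested regulators of glucose metabolism, 10 (30.3%) were higher and 3 (9.09%) lower in GFP high, beside 12.0% and 15.4% of all genes tested, with a median log2 fold change of 0.17. With the block 15 were higher and 4 lower, beside 20.7% and 21.0% of all genes tested with the block. Txnip, which restrains glucose import and is itself induced by glucose, had 716, 756, 587, 835 and 853 CPM in GFP high cells against 429, 407, 381, 526 and 541 CPM in GFP low cells. Every GFP high library lay above every GFP low library (log2 fold change 0.71 ± 0.12, adjusted p = 0.001198). Foxo1, a forkhead factor held back by growth signals, rose (0.60 ± 0.08, adjusted p = 2.09e-04), as did Epas1, the hypoxia-inducible factor 2 alpha gene (1.16 ± 0.16, adjusted p = 2.33e-04), and Sirt3, a mitochondrial deacetylase (0.63 ± 0.09, adjusted p = 3.51e-04). Mlxip, which encodes the glucose-responsive factor MondoA, rose (0.64 ± 0.11, adjusted p = 0.00111). Nr3c1, the glucocorticoid receptor gene (0.40 ± 0.13, adjusted p = 0.0334), and Cnr2, a cannabinoid receptor gene (0.44 ± 0.14, adjusted p = 0.0348), rose as well. Mlxip, Nr3c1 and Cnr2 were added once their values had been seen, and other regulators that rose are not named. The Nr3c1 call was lost in all fits that left out 1 library except those without GFP high library 1 or GFP low library 4 (0.34 to 0.42, adjusted p 0.0504 to 0.0745), and the Cnr2 call was lost without GFP high library 4 or 5, or GFP low library 1, 2 or 3 (0.34 to 0.43, adjusted p 0.06404 to 0.0811). Hif1a, the factor that drives glycolytic genes in low oxygen, fell slightly (-0.23 ± 0.08, adjusted p = 0.0371). It passed in only 2 of the 10 fits that left out 1 library, those without GFP low library 1 or 4, and elsewhere had adjusted p 0.06297 to 0.104. The other genes that fell were Trp53, which encodes the tumour suppressor p53 (-0.35 ± 0.09, adjusted p = 0.0159) and Nrf1, an activator of nuclear genes for mitochondrial proteins (-0.23 ± 0.08, adjusted p = 0.0469). Nrf1 passed in 1 such fit, without GFP low library 1. Myc, an activator of glycolytic genes, averaged 332 ± 88.6 CPM in GFP high cells against 275 ± 67.1 CPM in GFP low cells (adjusted p = 0.359), and passed both in libraries 4 and 5 alone (adjusted p = 0.00724) and when the block was fitted (0.26, adjusted p = 0.00551).

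Of 16 tested hypoxia-responsive genes outside glycolysis, 2 (12.5%) rose and 1 (6.25%) fell, beside 12.0% and 15.4% of all genes tested. Bnip3, a receptor for mitochondrial removal (0.69 ± 0.11, adjusted p = 7.09e-04) and Vegfa, a vessel growth factor (0.46 ± 0.13, adjusted p = 0.01896) rose and Mif, a cytokine (-0.57 ± 0.10, adjusted p = 0.00141) fell. For other fuels, 8 of 25 tested genes fell (32.0%) and 2 rose (8.0%), beside 15.4% and 12.0% of all genes tested. The risers were Slc1a5, the glutamine importer (0.79 ± 0.15, adjusted p = 0.00188), and Acadm, which oxidises medium-chain fatty acids (0.33 ± 0.09, adjusted p = 0.0151). Acaa2, the last enzyme of mitochondrial fatty acid oxidation, fell (-0.79 ± 0.11, adjusted p = 2.39e-04), as did Etfa, which passes on the electrons (-0.58 ± 0.08, adjusted p = 3.38e-04), and Acadl, a long-chain acyl-CoA dehydrogenase (-0.58 ± 0.09, adjusted p = 7.53e-04).

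Cell cycle transcripts were also lower in GFP high cells, the group labelled quiescent. All 20 S phase and mitosis genes listed fell, beside 15.4% of all genes tested, with a median log2 fold change of -1.17. The lowest p-values among them were those of Nusap1, a spindle protein gene (-1.17 ± 0.08, adjusted p = 6.18e-06), Ccnb2, a mitotic cyclin gene (-1.45 ± 0.10, adjusted p = 6.18e-06), and Aurkb, a mitotic kinase gene (-1.06 ± 0.08, adjusted p = 6.95e-06). Mki67, a marker of dividing cells, averaged 178 ± 60.7 CPM in GFP high cells against 406 ± 136 CPM in GFP low cells (log2 fold change -1.19 ± 0.27, adjusted p = 0.00664). Of the 16 B-cell progenitor markers 6 rose (37.5%) and 1 fell (6.25%), beside 12.0% and 15.4% of all genes tested. Log2 fold changes of the 16 ran from -0.54 to 0.96, with a median of 0.28. Those with the lowest p-values were Igll1, a surrogate light chain gene (0.46 ± 0.06, adjusted p = 1.77e-04), Il7r, the interleukin 7 receptor gene (0.96 ± 0.13, adjusted p = 2.02e-04), and Ebf1, a B-lineage factor gene (0.60 ± 0.09, adjusted p = 4.14e-04), which all rose. Pax5, the B-lineage factor named above, averaged 374 ± 47.1 CPM in GFP high cells against 312 ± 34.4 CPM in GFP low cells (0.26 ± 0.10, adjusted p = 0.0812) and passed with the block (adjusted p = 0.00352). Leaving out GFP high library 5 or GFP low library 1 also brought it past the threshold (log2 fold change 0.32 to 0.34, adjusted p 0.0192 to 0.0454). Pax5 passed too with total-count scaling (adjusted p = 0.0411), with DESeq2 (0.0482) and in libraries 1 to 3 alone (0.0365). The part of cell cycle state in the differences of the members was not tested.

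T-cell markers summed to 4.96 to 9.75 CPM in GFP high cells against 3.73 to 11.4 CPM in GFP low cells, with Cd8a at 0 in every library and Lck the 1 of 3 tested that fell. Neutrophil markers summed to 3.58 to 13.7 CPM in GFP high cells against 3.58 to 8.53 CPM in GFP low cells. NK-cell markers summed to 187 to 329 CPM in GFP high cells against 63.5 to 166 CPM in GFP low cells, nearly all from Klrb1c, which rose, while Gzma and Eomes were at 0. Monocyte markers summed to 79.96 to 123 CPM in GFP high cells against 46.5 to 88.6 CPM in GFP low cells, and Csf1r and Ly6c2 rose. Erythroid markers summed to 226 to 356 CPM in GFP high cells against 205 to 256 CPM in GFP low cells, mostly Tfrc, and Hbb-bs rose. Plasmacytoid dendritic cell markers summed to 772 to 1038 CPM in GFP high cells against 739.6 to 956 CPM in GFP low cells, and Siglech and Tcf4 rose. Stroma and endothelium markers summed to 257 to 311 CPM in GFP high cells against 147 to 184 CPM in GFP low cells, nearly all Pecam1, which rose. Plasma-cell markers summed to 924 to 1493 CPM in GFP high cells against 804 to 1217 CPM in GFP low cells, with Sdc1 and Xbp1 higher and Jchain at 0.629 CPM in GFP high cells against 56.7 CPM in GFP low cells. Mature B-cell markers summed to 1013 to 1565 CPM in GFP high cells against 959 to 1329.8 CPM in GFP low cells, with Ighd and Ccr7 higher and H2-Ab1 lower. Of the marker genes called here, Lck passed in 4 and Ly6c2, Hbb-bs, Tcf4 and Sdc1 in 3 of the 10 fits that left out 1 library, and the others named passed in all 10. The part of other cells in the differences of the members was not tested.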

How the data were processed

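The authors deposited whole-number read counts per Ensembl gene, not normalized, for 10 libraries of polyadenylated RNA amplified with a template-switching kit for small inputs, per the labels' protocols. The submitters' processing notes name mm10, STAR, featureCounts and DESeq2 without role, version or setting. Use of strand and treatment of reads with several matches are not given in the sources used here, so counts of overlapping genes and near-identical copies are uncertain. Symbols and positions came from GENCODE M21 (GRCm38, the build mm10), in which 55480 of 55573 identifiers matched. Libraries were grouped by title. Replicate libraries all differed by more than sampling noise (chi-square per gene at least 7.16).

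The test was the quasi-likelihood test of edgeR 4.0.16, run in R 4.3.3 on the counts (filterByExpr, TMM, glmQLFit, glmQLFTest, GFP high over GFP low, no covariate). P-values were adjusted by Benjamini-Hochberg over 12772 genes, with a threshold of 0.05. The SE is the absolute log2 fold change divided by the square root of F. CPM used TMM-scaled totals, and levels were compared between genes per kilobase of union exon bases. A floor of 3 counts corresponds to 0.202 to 0.282 CPM and covers counting error only. Copies were found with BLAST 2.17.0 among GENCODE transcripts (at least 95% identity over 200 bases). A second, rarely counted identifier carrying the symbol Aldoa was not used. The scripts were tested on simulated data.

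Same-numbered libraries correlated in their deviations from group means (0.248 to 0.353 in the 5 pairs, against -0.304 to 0.321 between other numbers; a check made on these data because the titles share numbers), so the replicate number was fitted as a block as an alternative. Other alternatives were RLE or total-count scaling, DESeq2 1.42.0, limma-voom 3.58.1, no filter, single libraries left out, libraries 1 to 3 or 4 and 5 alone, and both libraries numbered 3 left out. The members and lists were chosen with earlier results of these data known. Values per library are given for the members past the threshold with the largest changes in each pathway, for isoenzymes that differ in direction and for members whose edgeR call differs with the block. From other lists the genes past the threshold among the 3 with the lowest p, or any called set of up to 5, are named, with Txnip, Hif1a, Myc, Mki67 and Pax5. An exception is the 1 B-cell progenitor marker that fell, which is not named. Mlxip, Nr3c1 and Cnr2 fall outside this rule and were added once their values had been seen.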

Additional observations from a re-analysis of the deposited data

Results flagged for a closer look

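In 7 of the 86 groups of 5 libraries examined for the 43 tested members, the highest or lowest library stood far from the others. Its gap to the nearest library exceeded 0.71 of the group's range (Dixon's criterion), which chance alone gives in about 1 group in 20. In GFP high, Hk2 was low in library 2, at 3.31 CPM against 8.14 to 9.62 CPM in the other 4. Pgls was high in GFP high library 5, at 274 CPM against 215 to 227 CPM. Pdk2 was high in the same library, at 45.6 CPM against 27.6 to 30.8 CPM. Sucla2 was high in GFP high library 1, at 148 CPM against 103 to 116 CPM. In GFP low, Tkt was high in library 1, at 522 CPM against 366 to 398 CPM, and Pdhb was high in that library too, at 342 CPM against 219 to 243 CPM. Pkm was low in GFP low library 2, at 462 CPM against 525 to 546 CPM.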

How the results depend on the processing

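The count of members lower in GFP high (18) stayed within 1.5 times under every alternative run, and was 14 to 21 with single libraries left out. The count of higher members (3) was 1 in libraries 4 and 5 alone and 0 without both libraries numbered 3, and 0 to 4 with single libraries left out. Over all genes, 1538 were higher; this was 2645 with the replicate block, 926 without both libraries numbered 3 and 1189 to 1479 with single libraries left out. In glycolysis with transport, the 1 higher call became 2 with total-count scaling, DESeq2 or the block, 0 in libraries 4 and 5 alone or without both libraries numbered 3, and 0 to 2 with single libraries left out. In the pentose phosphate pathway the 1 lower call became 2 with DESeq2, 3 with the block, 2 in libraries 1 to 3 alone and 1 to 3 with single libraries left out. In pyruvate dehydrogenase and the TCA cycle, the 2 higher calls became 1 with limma-voom, 1 in libraries 1 to 3 or 4 and 5 alone, 0 without both libraries numbered 3 and 0 to 2 with single libraries left out. The 8 lower calls there became 4 with total-count scaling, 5 without the filter, 4 without both libraries numbered 3 and 4 to 8 with single libraries left out. Signs turned only for members near 0 that did not pass: Slc2a1 (-0.0041 in libraries 1 to 3), Pfkfb3 (-0.10 in libraries 4 and 5), Aldoa (-0.019 in libraries 1 to 3, -0.035 to 0.11 with single libraries left out), Hk2 (-0.27 to 0.057) and Pfkp (-0.14 to 0.071), both with single libraries left out. Pdhb turned positive (0.0080 with RLE scaling, 0.0080 with DESeq2, 0.0077 with limma-voom, 0.010 without the filter, 0.0062 with the block, 0.043 with total counts, 0.045 in libraries 4 and 5, -0.044 to 0.12 with single libraries left out). The causes were not tested. The block changed no other call of a member than the 7 named in the report. Ldhb and Slc16a3 were removed by the filter on low counts. Calls of members were also lost for Pdha1 (adjusted p = 0.0821 with total counts, 0.124 without the filter, 0.138 in libraries 1 to 3), Cs (0.0691, 0.0927 and 0.0531), Sucla2 (0.0516 with total counts, 0.0531 in libraries 1 to 3), Mdh1 (0.0515 with total counts, 0.0626 without the filter) and Pdk2 (0.0546 with limma-voom).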
